A study of Mus musculus with 52 samples.

Results

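Bulk RNA-seq of subcutaneous KPC tumors was used to compare 8 tumors of mice given the agonistic anti-LTβR antibody alone with 8 tumors of untreated mice, 16 of the 52 libraries of the series. The 16 were taken by their labels, and each gene in the table of normalized counts of 27525 genes was considered. KPC tumors here grew from 1 line of pancreatic cancer cells, taken from an engineered mouse whose tumor alleles were switched on by Pdx1-Cre, a Cre under the pancreatic Pdx1 promoter, and were implanted in the flank of syngeneic male C57BL/6NHsd mice aged 8 to 10 weeks, so both groups share the same engineered tumor cells and an intact immune system. Anti-LTβR is the antibody 4H8, given intraperitoneally in 4 doses of 100 µg until day 10 after tumors had reached about 100 mm3, and all tumors were resected on day 14. The untreated group received no agent that the methods name, so an antibody of irrelevant specificity was not compared. Of the same experiment, 8 tumors given 1 intratumoral dose of 2 µg of the STING agonist ADU-S100 and 8 tumors given both agents serve only to show where anti-LTβR alone differed. The hour of resection of each group is not given in the sources used here.

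The lymphotoxin-β receptor (LTβR) is a member of the TNF receptor family found on stromal, endothelial, epithelial and myeloid cells but not on lymphocytes, which instead make its ligands, lymphotoxin-α1β2 and LIGHT. Its engagement releases the kinase NIK from TRAF3-dependent degradation and activates the non-canonical NF-κB pair p52 and RelB beside the canonical pathway. In lymphoid organs this signal keeps high endothelial venules, follicular dendritic cells and the homeostatic chemokines that gather B and T cells, and an agonistic antibody replaces the ligand.

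Whole reads recovered per library from a second table ranged from 12762453 to 15404418 over the 16 tumors. The tumors carried the keratins of the implanted cells, with Krt8 at 6998 to 12368 (median 9219) normalized counts in untreated tumors, and Ltbr itself at 1121 to 1709.7 (median 1356). Genes of the tissue around the graft varied widely between libraries. The summed level of 8 skeletal muscle genes ran from 7338 to 148811 (median 10924) in untreated and from 8478 to 192972 (median 131657) in anti-LTβR tumors, and was above 50000 in 3 untreated and 6 anti-LTβR tumors. Summed skin genes ran from 2532 to 41745 (median 13527) and from 1755 to 43296 (median 5288), with anti-LTβR tumor 3 at the top of its group. None of these 16 genes passed the test. Other fits had either summed level as a covariate, used edgeR on the recovered reads or left out 1 library. Where a named gene missed an adjusted p of 0.05 there, or a called gene was under 2-fold, its paragraph says so. For T cell, type 1 helper and cytotoxic genes, part of this stands in the checkpoint paragraph. Angptl8, Gm6286, H2-Eb1, H2-Oa, Krt8, Tapbp and Tnfrsf1b, which passed, had no edgeR value. A lost adjusted p can go with a change of similar size, as for Cxcr4 and Il12rb2 with the muscle level, or with a smaller one, as for Prf1.

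Anti-LTβR alone changed a small set of genes. By limma on log2(normalized count + 1), with a called gene having an adjusted p under 0.05 and a change of at least 2-fold, 109 of 16691 genes tested were higher (0.653%) and 64 were lower (0.383%) in anti-LTβR tumors, 1.04% in either direction. At the adjusted p alone 1203 genes (7.21%) were higher and 1352 (8.10%) lower, and the median log2 fold change over all genes tested was 0.0030. The 64 lowered genes were led by mast cell proteases, and 10 of them were processed pseudogenes, whose reads can belong to near-identical parent genes. The 109 raised genes were led by Dbp and Nos2 and held 17 immunoglobulin variable segments. The 8 anti-LTβR tumors lay above every untreated tumor for 17 of the 109 genes and below every untreated tumor for 18 of the 64, while 0.809% and 0.965% of all genes tested separated the groups in these directions. With the summed muscle level as a covariate the called genes numbered 49 higher and 35 lower. The strand setting of the counting is not known, so reads of genes said to overlap on opposite strands may be mixed, as also for Nr1d1 (Thra), Ciita (Dexi), Tap1 (Psmb9), Bst1 (Fbxl5), Csf1r (Hmgxb3), Tagln (Pcsk7), Slurp1 (Them6) and Nfkbib (Sirt2). On the same strand Per3 overlaps Camta1, Clec9a overlaps Clec1b and Tapbp overlaps Zbtb22. Below, paired values in parentheses are a log2 fold change and its adjusted p. In bulk tissue, fewer cells of a type and less RNA per cell cannot be told apart.

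**Figure D1:**
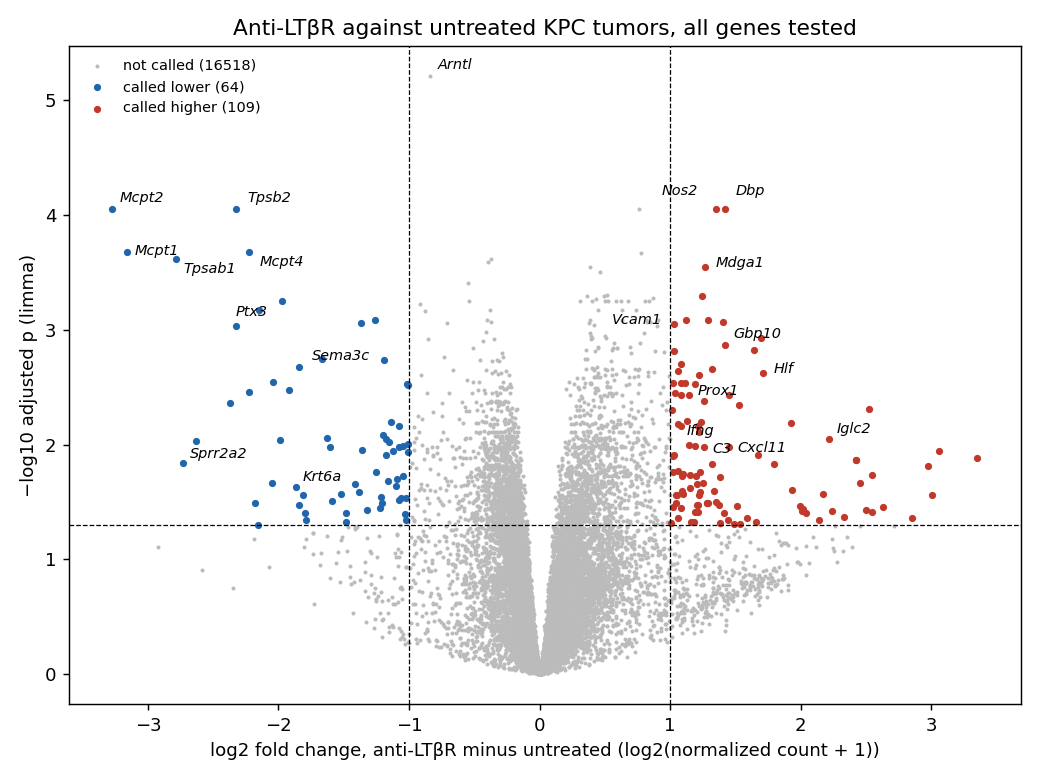
Log2 fold change of each of the 16691 genes tested (x axis, anti-LTβR minus untreated, 8 tumors each, on log2(normalized count + 1)) against −log10 of the adjusted p from limma (y axis); dashed lines mark 2-fold and an adjusted p of 0.05. The mast cell genes Mcpt1 and Mcpt2 lie farthest to the left among the 64 genes called lower (blue), Dbp and Nos2 lie highest among the 109 called higher (red), and Arntl has the smallest adjusted p of all with a change below 2-fold.

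Mast cell genes fell in anti-LTβR tumors. Mast cells are tissue-resident granulocytes that store histamine, chymases, tryptases and a carboxypeptidase and release them when IgE on the receptor FcεRI is crosslinked. Of 11 mast cell genes 10 were tested and 9 fell at an adjusted p under 0.05, 8 of them called (background 0.383% called lower), and the median log2 fold change of the 10 was -2.27 against 0.0030 over all genes. Their summed level ran from 1213 to 3098 (median 1557) in untreated tumors and from 226 to 653 (median 433) in anti-LTβR tumors, without overlap. As many, 9 of 10, passed with the muscle or the skin level as a covariate.

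Mcpt2, a chymase of mucosal mast cells, ranged from 216 to 677 (median 297) normalized counts in untreated tumors and from 12.4 to 109.6 (median 33.0) in anti-LTβR tumors. The lowest untreated tumor was above the highest anti-LTβR tumor, and the highest values within the groups belonged to untreated tumor 4 and anti-LTβR tumor 1. Its log2 fold change was -3.27 ± 0.34 (SE, adjusted p = 8.88e-05). Mcpt1, its neighbour and close relative, ran from 313 to 885 (median 415) in untreated and from 16.2 to 169 (median 48.8) in treated tumors, and fell by 3.16 ± 0.36 on the log2 scale (adjusted p = 0.000209). Both lie with Mcpt4 and Cma1 in the protease cluster of chromosome 14, in the table's coordinates (mm39) Cma1 at chr14:56178908-56182132, Mcpt1 at chr14:56255428-56257841, Mcpt2 at chr14:56279498-56282099 and Mcpt4 at chr14:56297086-56299770, and members of such families may share reads. The chymases of connective tissue mast cells fell too. Mcpt4 went from 222 ± 91.7 (SD, n = 8) to 46.3 ± 17.5 normalized counts with a log2 fold change of -2.23 ± 0.25 (SE, adjusted p = 0.000209), and Cma1 from 125 ± 55.8 to 27.4 ± 9.43 with -2.15 ± 0.30 (SE, adjusted p = 0.000666).

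The granule genes outside that cluster moved the same way. Tpsb2, a tryptase, ranged from 174 to 450.0 (median 219) in untreated and from 18.1 to 69.7 (median 52.2) normalized counts in anti-LTβR tumors, again without overlap, with a log2 fold change of -2.32 ± 0.24 (SE, adjusted p = 8.88e-05). Tpsab1, the neighbouring tryptase gene on chromosome 17, fell by 2.78 on the log2 scale (adjusted p = 0.000241) from a mean of 34.1 ± 10.3 to 4.74 ± 3.29, so the treated level rests on a few reads. Cpa3, the mast cell carboxypeptidase, changed by -1.67 ± 0.27 (SE, adjusted p = 0.00181), and Fcer1a, the IgE-binding chain of FcεRI, by -2.37 ± 0.45 (SE, adjusted p = 0.00432). Fcer1a ran from 10.8 to 27.8 (median 16.3) in untreated and from 0 to 10.1 (median 3.06) in treated tumors, and each of the 8 treated tumors was below each untreated tumor for both of these genes. Hdc, which makes histamine, changed by -0.96 ± 0.22 (SE, adjusted p = 0.0111) and so stayed under 2-fold, and Ms4a2, the β chain of FcεRI, failed the filter and changed by -1.23 ± 0.28 (SE, adjusted p = 0.0143) without it. Tph1, which starts serotonin synthesis and lies outside the list, changed by -2.33 ± 0.34 (SE, adjusted p = 0.000927). Kit, the stem cell factor receptor that mast cells share with melanocytes and other cells, ranged from 100.5 to 131 (median 112) and from 103 to 152 (median 113), with a log2 fold change of 0.019 ± 0.091 (SE, adjusted p = 0.903).

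Promoters of these genes were read from RefSeq (GRCm38.p6) as the 250 bases before the start, 8 of the 11 genes having an entry. The letters AGATAA on either strand (TTATCT when read on the other), which GATA factors of the mast cell lineage can bind, were in 3 of the 9 promoters of the list and in 9.99% of 32851 promoters. The 2 with a match among the genes called lower are shown, the match in capitals, Cpa3 from chr3:20242182-20242431 and Fcer1a from chr1:173227230-173227479, both on the minus strand and with no overlap of matches.
Cpa3: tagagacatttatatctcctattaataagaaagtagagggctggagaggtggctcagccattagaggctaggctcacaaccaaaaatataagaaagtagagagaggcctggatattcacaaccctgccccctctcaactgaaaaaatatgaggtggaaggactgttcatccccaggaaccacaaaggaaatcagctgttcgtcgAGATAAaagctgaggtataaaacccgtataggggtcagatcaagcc
Fcer1a: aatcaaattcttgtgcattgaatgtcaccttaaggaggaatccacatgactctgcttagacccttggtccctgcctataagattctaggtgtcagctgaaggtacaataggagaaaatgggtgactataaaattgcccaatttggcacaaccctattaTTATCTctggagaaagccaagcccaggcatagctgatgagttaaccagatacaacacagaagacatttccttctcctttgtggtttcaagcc

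**Figure D2:**
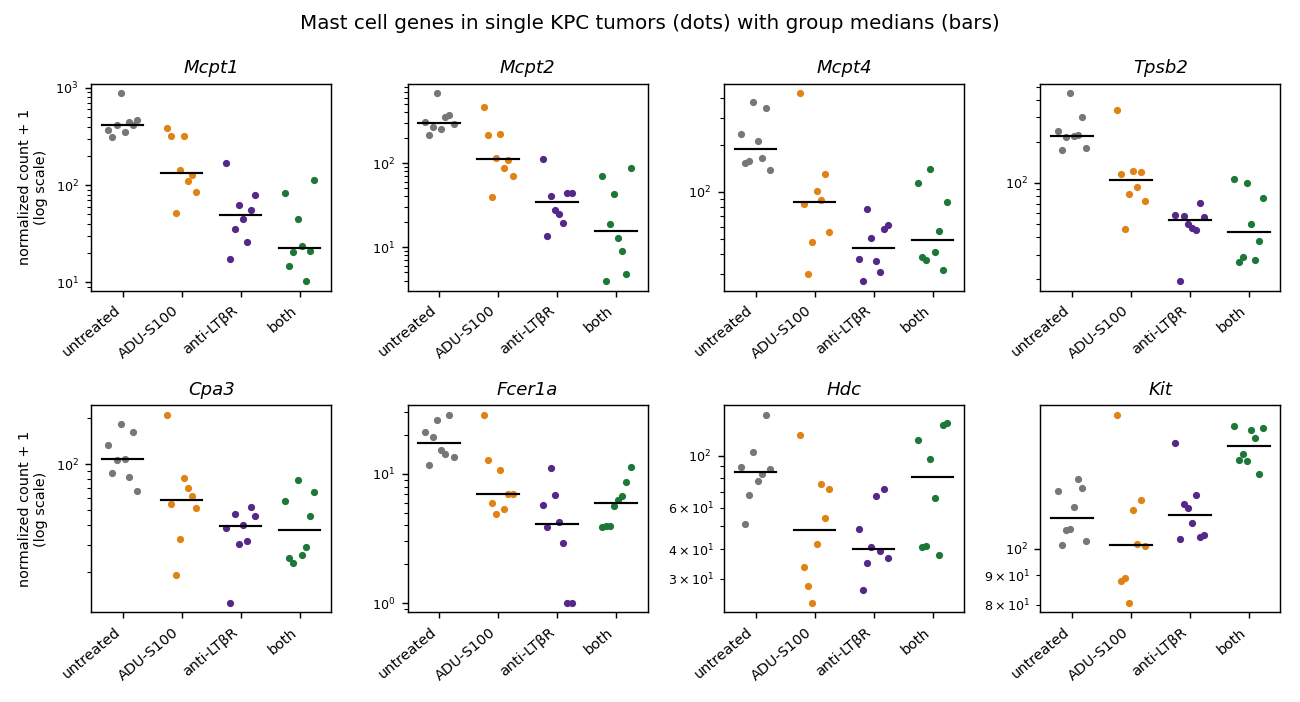
Normalized count + 1 (log scale) of 8 mast cell genes in single tumors (dots) with group medians (bars), 8 tumors in each of 4 groups (both, the combination). Mcpt1, Mcpt2, Mcpt4, Tpsb2, Cpa3 and Fcer1a lie lower in all 8 anti-LTβR tumors than in all 8 untreated tumors, Hdc overlaps between these groups, and Kit had medians of 112 and 113.

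The smallest adjusted p of the comparison belonged to a clock gene. The circadian clock is a transcriptional loop in which BMAL1 with CLOCK or NPAS2 drives E-box genes, among them Per, Cry, Nr1d1 and Dbp, while REV-ERBα and REV-ERBβ (Nr1d1 and Nr1d2) and NFIL3 repress RORE and D-box genes. Of 19 clock genes tested, 8 rose and 3 fell at an adjusted p under 0.05 (backgrounds 7.21% and 8.10%), 2 and 1 of them called. Arntl, which encodes BMAL1, ranged from 785 to 988 (median 875) normalized counts in untreated and from 402 to 554 (median 490.4) in anti-LTβR tumors. All 8 treated tumors were below the lowest untreated tumor, and the log2 fold change was -0.84 ± 0.066 (SE, adjusted p = 6.15e-06). Npas2, a partner of BMAL1, fell (log2 fold change -1.08 ± 0.24 SE, adjusted p = 0.0106), 7 of 8 treated tumors lying below the untreated range, and Nfil3 fell less, with -0.33 ± 0.089 (SE, adjusted p = 0.0217). Npas2 was under 2-fold with the muscle level (-0.997) or the skin level (-0.96) as a covariate and without anti-LTβR tumor 6 (-0.92). Clock itself had a log2 fold change of -0.041 ± 0.075 (SE, adjusted p = 0.726).

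The other 8 clock genes that passed rose. Dbp, a D-box activator, ranged from 157 to 309 (median 251) in untreated and from 449.8 to 770.2 (median 629) in anti-LTβR tumors, so the lowest treated tumor exceeded the highest untreated one, and the log2 fold change was 1.42 ± 0.15 (SE, adjusted p = 8.88e-05). Its relatives Tef and Hlf moved with it. Tef went from 908 ± 119 to 1536 ± 148 (0.76, adjusted p = 8.88e-05), and Hlf, a less abundant transcript, from a median of 14.9 (6.01 to 27.5) in untreated to one of 46.1 (35.6 to 61.7) in anti-LTβR tumors with a log2 fold change of 1.71 ± 0.29 (SE, adjusted p = 0.00237). Among the repressors, Per3 changed by 0.81 ± 0.11 (SE, adjusted p = 0.000562), Per2 by 0.82 ± 0.12 (SE, adjusted p = 0.000824), Bhlhe41 by 0.50 ± 0.067 (SE, adjusted p = 0.000562), Nr1d1 by 0.51 ± 0.10 (SE, adjusted p = 0.00684) and Nr1d2 by 0.39 ± 0.086 (SE, adjusted p = 0.00951). For Dbp, Tef, Hlf, Per2, Per3 and Bhlhe41 the 8 treated tumors all lay above the untreated tumors. Cry1, at 0.20 ± 0.094 (SE, adjusted p = 0.14), Cry2, at 0.27 ± 0.089 (SE, adjusted p = 0.0536), and Ciart, at 0.24 ± 0.20 (SE, adjusted p = 0.409), did not pass. The reads of Dbp and Sphk2, which overlap on opposite strands, can be told apart only if the counting used strand. With the muscle or skin level as a covariate 9 or 10 clock genes were higher and 3 lower.

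Clock proteins bind short promoter elements, so windows of genes that passed are printed where one was found. CACGTG, the E-box, was in 6 of 21 promoters of the 16 clock genes with a RefSeq entry (6.02% of all 32851 promoters), TTANGTAA, the D-box, in 1 of 21 (2.06%) and TAGGTCA, the core of the RORE, in 1 of 21 (2.23%), both strands searched, no matches overlapping. Matches are in capitals, for Per3 at chr4:151044666-151044915 on the minus strand with 2 D-boxes, Bhlhe41 at chr6:145865421-145865670 on the minus strand and the downstream start of Tef at chr15:81811164-81811413 on the plus strand with an E-box each (the upstream Tef start, at chr15:81802423-81802672 and not printed, holds an E-box too), and Nfil3 at chr13:52981040-52981289 on the minus strand with the RORE core read on the opposite strand. The genes with an E-box were Bhlhe41, Ciart, Cry1, Per1 and Tef, and of these Ciart, Cry1 and Per1 did not pass. The promoters of Arntl, Npas2, Dbp, Hlf, Nr1d1 and Nr1d2, which passed, had none of these letters in the 250 bases.
Per3: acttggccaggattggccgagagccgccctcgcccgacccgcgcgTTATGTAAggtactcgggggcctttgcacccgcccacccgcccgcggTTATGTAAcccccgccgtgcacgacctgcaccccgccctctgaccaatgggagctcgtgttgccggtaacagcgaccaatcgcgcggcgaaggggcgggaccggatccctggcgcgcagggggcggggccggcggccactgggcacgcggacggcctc
Bhlhe41: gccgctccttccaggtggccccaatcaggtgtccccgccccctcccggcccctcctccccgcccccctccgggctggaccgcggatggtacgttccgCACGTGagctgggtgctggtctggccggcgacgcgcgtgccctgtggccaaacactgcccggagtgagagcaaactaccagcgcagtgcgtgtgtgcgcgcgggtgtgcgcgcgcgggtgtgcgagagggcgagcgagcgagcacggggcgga
Tef: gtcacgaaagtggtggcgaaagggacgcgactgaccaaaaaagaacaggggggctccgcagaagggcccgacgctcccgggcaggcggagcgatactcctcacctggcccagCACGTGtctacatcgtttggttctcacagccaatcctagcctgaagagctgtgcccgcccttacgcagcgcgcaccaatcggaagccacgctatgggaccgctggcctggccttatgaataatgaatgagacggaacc
Nfil3: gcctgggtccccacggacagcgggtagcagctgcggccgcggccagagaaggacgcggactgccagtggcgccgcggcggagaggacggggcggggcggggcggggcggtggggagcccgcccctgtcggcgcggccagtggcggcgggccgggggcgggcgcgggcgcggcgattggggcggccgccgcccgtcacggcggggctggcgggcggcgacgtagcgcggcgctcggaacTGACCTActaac

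**Figure D3:**
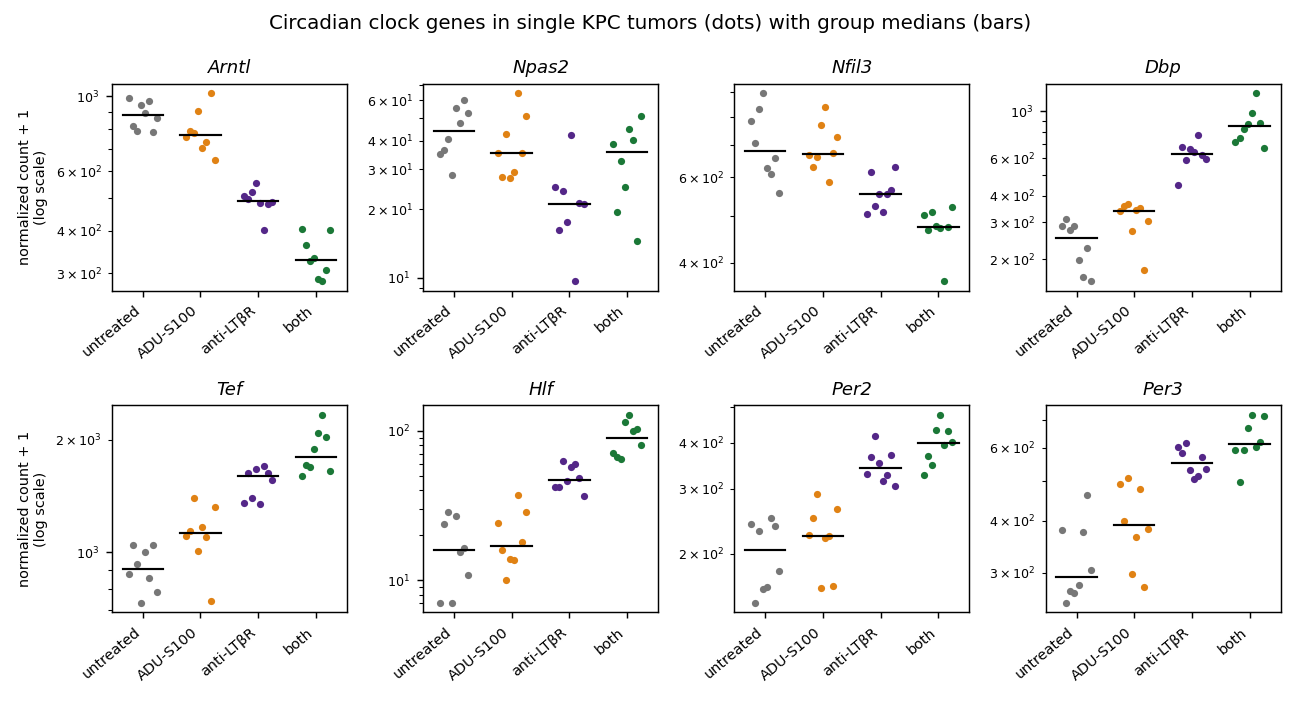
Normalized count + 1 (log scale) of 8 clock genes in single tumors (dots) with group medians (bars), 8 tumors in each of 4 groups (both, the combination). Arntl falls and Dbp, Tef, Hlf, Per2 and Per3 rise with no overlap between untreated and anti-LTβR tumors; Arntl is lower and Dbp, Tef and Hlf are higher again in combination tumors.

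Interferon-γ target genes rose together, each by less than 2-fold. Of 15 such genes 13 passed higher (background 7.21%) and none was called, with a median log2 fold change of 0.56, and as many passed with the muscle or skin level as a covariate. Gbp5, a guanylate-binding GTPase, ranged from 524 to 971 (median 831) in untreated and from 1261 to 1651 (median 1446) in anti-LTβR tumors, with 0.86 ± 0.11 (SE, adjusted p = 0.000529). Gbp4 (0.84, adjusted p = 0.000854), Gbp6 (0.76, 0.0022) and Ciita, the master regulator of MHC class II (0.65, 0.00227), rose in the same way. For Gbp5, Gbp4 and Ciita the groups did not overlap, though Gbp4 overlaps Gbp8 and Gbp9 in the annotation and may share reads with them. Ifng itself was scarce, at 24.8 to 68.2 (median 33.3) in untreated and 55.4 to 102 (median 82.6) in anti-LTβR tumors, and was called higher with 1.06 ± 0.22 (SE, adjusted p = 0.00665). The value of Ifng was under 2-fold with the muscle level (0.73) or the skin level (0.988) as a covariate, by edgeR (0.98) and without untreated tumor 1, 4 or 7 (down to 0.97). Of 15 type I interferon targets 3 rose, namely Oasl2 (0.40, 0.00665), Ifit2 (0.54, 0.011) and Ddx58 (0.31, 0.018), and Ifih1 had 0.19 (0.171).

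Nos2, the inducible nitric oxide synthase of activated macrophages, ranged from 763 to 1529.5 (median 1012) normalized counts in untreated and from 2016 to 3224 (median 2669) in anti-LTβR tumors. Every treated tumor was above every untreated one, and the log2 fold change of 1.35 ± 0.14 (SE, adjusted p = 8.88e-05) is a 2.55-fold rise. Slc7a2, which imports arginine, the substrate of that enzyme, rose by 1.19 ± 0.21 (SE, adjusted p = 0.00299). Gbp10 went from 996 ± 404 to 2549.8 ± 631 (1.42, adjusted p = 0.00136) and Gm43302 from 659 ± 207 to 1373 ± 284 (1.08, 0.00198), but these overlap on 1 strand of chromosome 5 (chr5:105363565-105387399 and chr5:105362773-105441561) and cannot be taken as separate, and Gm43302 overlaps Gbp6 as well. Serpina3f, a serine protease inhibitor, rose by 1.40 ± 0.20 (SE, adjusted p = 0.000854), Ly6i by 1.24 ± 0.16 (SE, adjusted p = 0.00051) and Kynu, the kynureninase of tryptophan breakdown, by 1.12 ± 0.16 (SE, adjusted p = 0.000824). Among the called genes with the highest counts, the complement component C3 rose from 6711 ± 4007 to 14407 ± 3976 (1.26, 0.0106) and Igfbp5, an insulin-like growth factor binding protein, from 1321 ± 786 to 2375 ± 634 (1.02, 0.0351). Igfbp5 had 0.53 (adjusted p = 0.0865) with the muscle level as a covariate and had 0.97 (adjusted p = 0.0568) with the skin level and an adjusted p of 0.0716 by edgeR. Slc7a2 (0.94), C3 (0.94) and Gm43302 (0.85) passed under 2-fold with the muscle level. With 1 library left out, the adjusted p exceeded 0.05 for Igfbp5 without any 1 of 9 of the 16 libraries (up to 0.0698), and its call ended without any 1 of 10.

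Ltbr ranged from 1155 to 1357 (median 1218) normalized counts in anti-LTβR tumors, within the untreated range of 1121 to 1709.7, with a log2 fold change of -0.15 ± 0.07 (SE, adjusted p = 0.135). Among its ligands, Ltb had 0.28 ± 0.20 (SE, adjusted p = 0.343) and Tnfsf14, which encodes LIGHT, -0.21 ± 0.17 (SE, adjusted p = 0.386), while Lta failed the filter and had 0.31 ± 0.35 (SE, adjusted p = 0.638) without it. Of 7 ligand and receptor genes tested 2 rose (background 7.21%), both receptors, Tnfrsf14, the second receptor of LIGHT, with 0.63 ± 0.12 (SE, adjusted p = 0.00368) and no overlap between groups, and Tnfrsf1b, a TNF receptor, with 0.22 ± 0.052 (SE, adjusted p = 0.0111). Tnf, at 0.40 (0.142), and its receptor Tnfrsf1a, at -0.024 (0.737), did not pass. Of 19 NF-κB genes 3 rose (background 7.21%) and none fell. Ikbkg, the NEMO subunit of the IκB kinase, rose from a median of 1305 (1163 to 1559.9) in untreated to one of 1729.8 (1634 to 1888) in anti-LTβR tumors, without overlap, with 0.40 ± 0.061 (SE, adjusted p = 0.00119), but it overlaps G6pdx on the opposite strand. Traf3, the adaptor that keeps NIK low, rose by 0.26 ± 0.059 (SE, adjusted p = 0.0105) and the inhibitor Nfkbie by 0.35 ± 0.097 (SE, adjusted p = 0.024), the latter having 0.32 (adjusted p = 0.0688) with the muscle level as a covariate.

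The core non-canonical members did not pass. Map3k14, which encodes NIK, had a log2 fold change of -0.13 ± 0.082 (SE, adjusted p = 0.275), Nfkb2, the precursor of p52, 0.065 ± 0.065 (SE, adjusted p = 0.507), Relb 0.077 ± 0.083 (SE, adjusted p = 0.533) and Birc3 0.22 ± 0.097 (SE, adjusted p = 0.129). The other 12 genes of the list (Traf1, Traf2, Birc2, Chuk, Ikbkb, Nfkb1, Rel, Rela, Nfkbia, Nfkbib, Tnfaip3 and Bcl3) lay between -0.085 (Bcl3, adjusted p = 0.561) and 0.23 (Rel, 0.0893). These values cover transcripts on day 14 and not protein.

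Chemokines moved in both directions. Of 19 inflammatory chemokines 6 rose and 4 fell (backgrounds 7.21% and 8.10%). The CXCR3 ligands, which draw type 1 T cells, rose: Cxcl11 from a median of 51.1 (32.1 to 139.6) in untreated to one of 179 (70.7 to 302) in anti-LTβR tumors with 1.45 ± 0.33 (SE, adjusted p = 0.0104), Cxcl10 by 0.61 (0.0255) and Cxcl9 by 0.57 (0.0383). Cxcl16 (0.42, 0.00652) and Ccl5, which attracts T cells (0.94, 0.0137), rose as well. Cxcl11 and Cxcl16 overlap Art3 and Zmynd15 on the opposite strand. Ligands of monocytes and neutrophils were among those that fell. Ccl2 ranged from 371 to 659 (median 472) in untreated and from 212 to 406 (median 305) in treated tumors, 5 of which lay below the untreated range, with -0.67 ± 0.15 (SE, adjusted p = 0.0102), and its neighbour Ccl7 changed by -0.62 ± 0.14 (SE, adjusted p = 0.0104). Cxcl2 (-1.10, 0.0229) and Cxcl3 (-1.02, 0.0449), ligands of CXCR2, were called lower, and edgeR on the recovered reads called neither (adjusted p = 0.0506 and 0.0886). With muscle as a covariate, the adjusted p was 0.0777 for Cxcl10, 0.0969 for Cxcl9, 0.0796 for Cxcl2 and 0.139 for Cxcl3. With skin it was 0.0622 for Cxcl9 and 0.0794 for Cxcl3. Cxcl2 passed under 2-fold with the skin level (-0.89) and without anti-LTβR tumor 2, 6 or 8 (up to -0.98). The adjusted p exceeded 0.05 for Cxcl10 without untreated tumor 1 (up to 0.0537), Cxcl9 without any 1 of 10 of the 16 libraries (up to 0.0785) and Cxcl3 without any 1 of 10 of the 16 libraries (up to 0.0864).

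Of the homeostatic chemokines that LTβR maintains in lymph nodes, Ccl19, Cxcl12, Cxcl13 and Ccl21a did not pass. Ccl21a, the CCR7 ligand of lymphatic and stromal cells, ranged from 174 to 746 (median 451) in untreated and from 401 to 1632 (median 709.7) in anti-LTβR tumors, 4 of which lay above the untreated range, with 0.95 ± 0.32 (SE, adjusted p = 0.0568). Its near-identical copies, which may share its reads, had a log2 fold change of 1.28 (adjusted p = 0.0322, Ccl21b) and 1.29 (0.032, Ccl21d), looked up after the value of Ccl21a was seen and not refitted otherwise, and Gm10591 is listed with the values of Ccl21b. Cxcl13, the B cell attractant, had 0.13 ± 0.35 (SE, adjusted p = 0.824) and Ccl19 0.023 ± 0.34 (SE, adjusted p = 0.97). The CXCL13 receptor Cxcr5, which overlaps the more abundant Bcl9l on the opposite strand, was at 0.79 ± 0.30 (SE, adjusted p = 0.0792), and Cxcr4, the CXCL12 receptor, rose by 0.35 ± 0.11 (SE, adjusted p = 0.0417). Cxcr4 had an adjusted p of 0.0715 with the muscle level (log2 fold change 0.36), 0.0755 with the skin level (0.29) and 0.0543 by edgeR (0.34). Ccl20 fell from a median of 16.9 (4.45 to 46.9) in untreated to one of 5.51 (1.09 to 16.6) in anti-LTβR tumors (log2 fold change -1.49 ± 0.46 SE, adjusted p = 0.0395). Its adjusted p was 0.0925 with the muscle level (log2 fold change -1.37) and 0.0713 with the skin level (-1.28). With 1 library left out, the adjusted p exceeded 0.05 for Ccl20 without any 1 of 9 of the 16 libraries (up to 0.0731) and Cxcr4 without any 1 of 11 of the 16 libraries (up to 0.0807).

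Part of the genes of both lymphatic and blood vessels rose. Of 7 lymphatic endothelial genes 5 rose (background 7.21%), 3 of them called, with a median of 0.84. Prox1, the transcription factor that sets lymphatic identity, ranged from 24.3 to 68.0 (median 36.5) in untreated and from 64.3 to 113 (median 84.1) in anti-LTβR tumors, 6 of 8 above the untreated range, with 1.14 ± 0.21 (SE, adjusted p = 0.00368). Flt4, the receptor of VEGF-C, rose by 1.08 ± 0.22 (SE, adjusted p = 0.00693), Mmrn1, a secreted multimerin, by 1.05 ± 0.31 (SE, adjusted p = 0.0322) and Reln by 0.84 ± 0.25 (SE, adjusted p = 0.0348). Under the muscle covariate Mmrn1 had an adjusted p of 0.107 and Reln of 0.116, so that 2 of the 7 passed, and Prox1 was under 2-fold (0.96). Reln had an adjusted p of 0.0606 with the skin level, Mmrn1 was under 2-fold by edgeR (0.95), and Flt4 was so without untreated tumor 8 or anti-LTβR tumor 6 (down to 0.96). Lyve1, a hyaluronan receptor also found on macrophages, had 0.30 ± 0.27 (SE, adjusted p = 0.446). The adjusted p exceeded 0.05 for Mmrn1 without any 1 of 6 of the 16 libraries (up to 0.0652, its call ending without any 1 of 7) and Reln without any 1 of 9 of the 16 libraries (up to 0.0696). Blood endothelial genes rose in 8 of 19 cases, Mmrn2 with 0.50 ± 0.11 (SE, adjusted p = 0.00914) and no overlap, Vwf with 0.47 (0.0119), Cdh5, the cadherin of endothelial junctions, with 0.35 (0.0127) and Erg with 0.58 (0.0156). With the summed muscle level added, 4 of the 19 passed.

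Vcam1, the adhesion molecule that LTβR and TNF induce on stroma and endothelium, ranged from 844 to 1778 (median 1025) normalized counts in untreated and from 1729 to 3457 (median 2130.1) in anti-LTβR tumors, 7 of 8 above the untreated range, and was called higher with 1.03 ± 0.15 (SE, adjusted p = 0.000893). It passed under 2-fold with the muscle level (0.87) or the skin level (0.93) as a covariate and without untreated tumor 7 or anti-LTβR tumor 2 or 4 (down to 0.94). Enpp2, the autotaxin made by high endothelial venules, rose by 0.97 ± 0.18 (SE, adjusted p = 0.00424) and Icam1 by 0.46 ± 0.10 (SE, adjusted p = 0.0105), while the sialomucin Podxl fell from a median of 2659 (2259 to 2895) in untreated to one of 1788 (1556 to 2204) in anti-LTβR tumors, without overlap, with -0.54 ± 0.072 (SE, adjusted p = 0.000562). Of the 13 venule and adhesion genes tested 4 rose and 1 fell, where 7.21% and 8.10% of all genes did. The 1 that fell, Podxl, stood above the endothelial gene Cdh5 (309 to 447 in untreated tumors), and which cells made it was not tested. The defining venule genes failed the filter. Glycam1 had at most 5.03 normalized counts in untreated and 17.3 in anti-LTβR tumors, Madcam1 1.02 and 3.68, and Chst4, the sulfotransferase of the venule epitope, 1.97 and 6.71. Without the filter their adjusted p were 0.465, 0.579 and 0.555. Of 7 tested genes of follicular dendritic cells and lymphoid stroma, Bst1 (0.44, 0.0263) and the B cell survival factor Tnfsf13b (0.50, 0.0353) rose, and C4b (0.39, 0.168) and Clu (-0.49, 0.282) did not pass. Neither Bst1 (0.0868) nor Tnfsf13b (0.12) kept its adjusted p under 0.05 with the muscle level as a covariate. Tnfsf13b had 0.065 with the skin level and 0.0516 by edgeR. Bst1 missed 0.05 without untreated tumor 1 or 4 or anti-LTβR tumor 7 (up to 0.0553) and Tnfsf13b without any 1 of 9 of the 16 libraries (up to 0.0716).

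B lineage genes were higher in some anti-LTβR tumors and not in others. Immunoglobulin variable and constant genes together took from 0.0698 to 0.568% (median 0.215) of the normalized counts in untreated tumors and from 0.162 to 1.67% (median 0.584) in anti-LTβR tumors. Summed constant genes were above the highest untreated tumor in 4 of 8 treated tumors, and all 4 were among the 6 with a summed muscle level above 50000. Anti-LTβR tumors 2 and 8, also among these 6 (muscle 129336 and 192972), had constant gene sums of 32975 and 37947. In untreated tumors 3 and 6 constant genes summed to 63199 and 44057, at muscle levels of 125433 and 7365. Whether the sums are linked was not tested. Of 133 variable segments tested 17 were called higher and none lower (background 0.653%), and all 133 had a positive difference. Of 11 constant genes 4 were called higher. Iglc2 ranged from 24.8 to 221 (median 87.1) in untreated and from 169 to 1336 (median 318) in treated tumors, 7 of 8 above the untreated range, with 2.22 ± 0.48 (SE, adjusted p = 0.0089). Ighg3 was called too, with 2.17 ± 0.61 (SE, adjusted p = 0.0268), and treated tumor 7 reached 5792. Iglc1 had 1.54 ± 0.51 (SE, adjusted p = 0.0488) and Iglc3 2.04 ± 0.63 (SE, adjusted p = 0.0397), the λ constant genes being near-identical so that reads may be split among them, and Igkc and Ighm did not pass with 1.39 ± 0.51 (SE, adjusted p = 0.0718) and 1.53 ± 0.54 (SE, adjusted p = 0.0644). When the muscle level was a covariate, 1 of the 11 passed, with an adjusted p of 0.0802 for Ighg3, 0.122 for Iglc3 and 0.16 for Iglc1. With the skin level 2 passed, with 0.0715 for Iglc3 and 0.0817 for Iglc1. With 1 library left out, the adjusted p exceeded 0.05 for Ighg3 without untreated tumor 4 or anti-LTβR tumor 6 (up to 0.0525), Iglc3 without any 1 of 10 of the 16 libraries (up to 0.0809) and Iglc1 without any 1 of 13 of the 16 libraries (up to 0.0928).

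Among 11 B cell genes tested 3 were called higher (background 0.653%). Cd22, an inhibitory coreceptor, ranged from 49.7 to 132 (median 85.3) in untreated and from 138 to 215 (median 175) in anti-LTβR tumors, without overlap, with 1.06 ± 0.18 (SE, adjusted p = 0.00227). The coactivator Pou2af1 rose by 1.38 ± 0.45 (SE, adjusted p = 0.0479), while Cd79a, at 1.19 ± 0.42 (SE, adjusted p = 0.062), and Ms4a1, at 0.66 ± 0.30 (SE, adjusted p = 0.139), did not pass. Of 7 plasma cell genes 2 were called, Irf4 with 1.09 ± 0.31 (SE, adjusted p = 0.0271) and Mzb1 with 1.65 ± 0.54 (SE, adjusted p = 0.047), while Jchain, which joins polymeric antibodies, had 1.51 ± 0.52 (SE, adjusted p = 0.0559) and Prdm1, the plasma cell regulator, 0.42 ± 0.16 (SE, adjusted p = 0.0797). With the muscle level as a covariate Irf4 had an adjusted p of 0.0896, Mzb1 of 0.148 and Pou2af1 of 0.161, and 2 of the 11 B cell genes passed. With the skin level the adjusted p was 0.0835 for Mzb1 and 0.0831 for Pou2af1 while Irf4 passed under 2-fold (0.955). By edgeR Mzb1 had 0.0524. Cd22 passed under 2-fold with the muscle level (0.90), with the skin level (0.99) and without untreated tumor 1 or 7 (down to 0.96). The adjusted p exceeded 0.05 for Pou2af1 without any 1 of 12 of the 16 libraries (up to 0.0944), Irf4 without untreated tumor 1 or 4 or anti-LTβR tumor 5, 6 or 7 (up to 0.0569) and Mzb1 without any 1 of 12 of the 16 libraries (up to 0.0898).

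Some T cell genes rose. All 15 had positive differences, 5 rose (background 7.21%) and 1 was called, the costimulatory receptor Cd28, from a median of 47.4 (29.2 to 73.9) in untreated to one of 94.2 (73.9 to 139.9) in anti-LTβR tumors, 7 of 8 tumors above the untreated range, with 1.03 ± 0.16 (SE, adjusted p = 0.00152). Cd28 was under 2-fold with the muscle level (0.86) or the skin level (0.95) as a covariate and without untreated tumor 4 or anti-LTβR tumor 7 or 8 (down to 0.93). Cd3e changed by 0.79 ± 0.18 (SE, adjusted p = 0.0102), Trac by 0.60 ± 0.16 (SE, adjusted p = 0.0243), the kinase Lck by 0.43 ± 0.12 (SE, adjusted p = 0.0257) and Cd8a by 0.74 ± 0.22 (SE, adjusted p = 0.0316), while Cd4 did not pass with 0.45 ± 0.19 (SE, adjusted p = 0.111). Of 9 genes of the type 1 helper program 4 rose. Il12rb1, a chain of the IL-12 receptor, went from a median of 385 (271 to 494) in untreated to one of 698 (489 to 955) in anti-LTβR tumors with 0.90 ± 0.13 (SE, adjusted p = 0.000925), and Il12rb2 (0.91, 0.0311) and the regulator Tbx21 (0.61, 0.0174) accompanied Ifng. Il12rb2 overlaps the far more abundant Serbp1 on the opposite strand. Among 12 cytotoxic genes 3 rose, the receptors Klrc1 (0.69, 0.00664) and Klrk1 (0.53, 0.00764) and the perforin gene Prf1 (0.67, 0.0455), while Gzmb, at 0.29 (0.128), and Nkg7, at 0.53 (0.0636), did not pass. Leaving out 1 library took the adjusted p past 0.05 for Lck without untreated tumor 1 or 4 or anti-LTβR tumor 6 (up to 0.0527), for Cd8a and Il12rb2 without any 1 of 6 of the 16 libraries (up to 0.0632 and 0.061). Prf1 missed 0.05 without any 1 of 12 (up to 0.0911).

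Of 8 checkpoint genes 4 rose (background 7.21%). Cd274, which encodes PD-L1, went from a median of 1959 (1424 to 3354) in untreated to one of 3248 (2715 to 3491) in anti-LTβR tumors with 0.64 ± 0.12 (SE, adjusted p = 0.00463), Lag3 rose by 0.85 ± 0.20 (SE, adjusted p = 0.0113), Havcr2 by 0.36 ± 0.094 (SE, adjusted p = 0.0208) and Btla, the receptor that binds Tnfrsf14, by 0.58 ± 0.17 (SE, adjusted p = 0.0358). None of 7 regulatory T cell genes passed, the nearest being Il2ra (0.47, 0.064), and Il10 (-0.16, 0.654), Ccr8 (0.37, 0.256), Ctla4 (0.23, 0.327) and Tnfrsf18 (0.15, 0.355) were farther from the threshold. With muscle as a covariate, 2 T cell, 2 type 1 helper and 2 checkpoint genes passed, with adjusted p of 0.102 for Cd8a, 0.0766 for Trac, 0.0841 for Lck, 0.0587 for Tbx21, 0.0657 for Il12rb2, 0.149 for Prf1, 0.0635 for Havcr2 and 0.103 for Btla. The log2 fold changes of these 8 genes in that order were 0.46, 0.37, 0.35, 0.42, 0.90, 0.36, 0.32 and 0.49. With skin as a covariate it was 0.0577 for Cd8a, 0.0737 for Prf1 and 0.0603 for Btla, and by edgeR 0.0654 for Prf1. Btla missed 0.05 without any 1 of 9 of the 16 libraries (up to 0.0698).

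**Figure D4:**
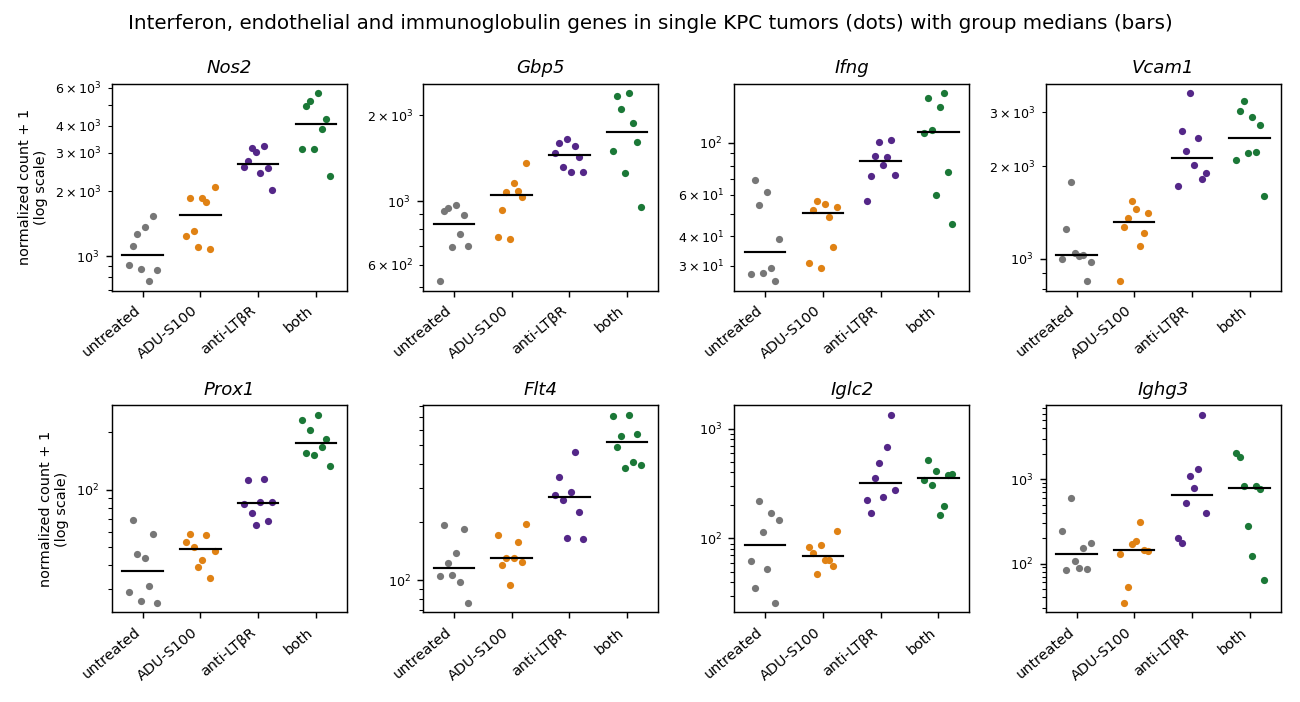
Normalized count + 1 (log scale) of 8 genes in single tumors (dots) with group medians (bars), 8 tumors in each of 4 groups (both, the combination). Nos2 and Gbp5 separate untreated from anti-LTβR tumors without overlap, Ifng, Vcam1, Prox1, Flt4 and Iglc2 overlap at the edges of the groups, and Ighg3 spreads over more than 10-fold within anti-LTβR tumors.

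Antigen presentation genes that rose did so by under 2-fold. Of 12 class I genes 6 rose (background over all genes 7.21%, also for the lists that follow), among them the transactivator Nlrc5 (0.45, 0.0014, no overlap) and the peptide transport genes Tap1 (0.39, 0.00299), Tap2 (0.37, 0.00837) and Tapbp (0.40, 0.00999). Of 9 class II genes 6 rose, among them H2-Ob (0.68, 0.00632), H2-Oa (0.85, 0.0191), H2-Eb1 (0.52, 0.0165) and H2-Aa (0.48, 0.0208), and 1 of the 9 passed with the muscle level as a covariate, the adjusted p being 0.0694 for H2-Oa, 0.059 for H2-Eb1 and 0.073 for H2-Aa. Dendritic cell genes rose in 3 of 10 cases. Zbtb46, a transcription factor of conventional dendritic cells, rose from a median of 165 (96.5 to 210.1) in untreated to one of 265 (230.3 to 351) in anti-LTβR tumors, without overlap, by 0.83 ± 0.14 (SE, adjusted p = 0.00253). Irf8 changed by 0.50 ± 0.076 (SE, adjusted p = 0.00113) and Clec9a, a receptor of cross-presenting dendritic cells, by 0.79 ± 0.23 (SE, adjusted p = 0.0333), while Xcr1 on the same cells had 0.66 ± 0.23 (SE, adjusted p = 0.0576). Clec9a had an adjusted p of 0.0881 with the muscle and 0.0575 with the skin level as a covariate, and missed 0.05 without any 1 of 6 of the 16 libraries (up to 0.0641). Of 12 macrophage genes 4 rose, Nos2 and, by less, Cd68 (0.45, 0.00336), Csf1r (0.34, 0.0165) and Mertk (0.52, 0.00991). None of 9 neutrophil genes passed, from Il1b at -0.28 (0.372) to Mmp8 at 0.26 (0.415), with Cxcr2 at -0.22 (0.459) and Csf3r at 0.15 (0.486).

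Of 12 epithelial genes tested, listed as those of the tumor cells, 7 fell (background 8.10%) and none rose or was called, with a median of -0.51. Lad1, an anchoring filament protein, ranged from 3679.9 to 5358 (median 4279) in untreated and from 2704 to 3460.4 (median 2896) in anti-LTβR tumors, without overlap, with -0.55 ± 0.069 (SE, adjusted p = 0.000389). Msln, the mesothelin of pancreatic cancer cells, changed by -0.86 ± 0.16 (SE, adjusted p = 0.00354), Krt18 by -0.75 ± 0.14 (SE, adjusted p = 0.0043), Krt8 by -0.40 ± 0.11 (SE, adjusted p = 0.0213) and Cdh1, E-cadherin, by -0.94 ± 0.28 (SE, adjusted p = 0.0333), while Epcam had -0.27 ± 0.44 (SE, adjusted p = 0.699). Skin genes moved in part with Epcam and Cdh1. Epcam was at 127, 129 and 155 in untreated tumors 5, 6 and 7, whose summed skin levels were 41745, 19053 and 31527, and at 27.6 and 16.3 in untreated tumors 2 and 3, with skin levels of 3862 and 2532. Untreated tumor 4 had Epcam at 78.3 with a skin level of 22118. Cdh1 was at 617, 479 and 562 in untreated tumors 5, 6 and 7, at 207 and 361 in tumors 2 and 3, and at 450 in tumor 4. Among treated tumors both genes were highest in anti-LTβR tumor 3 (Epcam 141, Cdh1 529), where skin stood at 43296. With the skin level as a covariate Epcam had 0.23 (0.462) and Cdh1 -0.64 (0.0149), and again 7 of the 12 were lower. Under the muscle covariate 3 of the 12 passed, with adjusted p of 0.059 for Krt8 and 0.106 for Cdh1, and Cdh1 missed 0.05 without any 1 of 8 of the 16 libraries (up to 0.0635). Of 12 cell cycle genes 4 rose (background 7.21%), Mcm2 (0.23, 0.0276), Bub1 (0.32, 0.0363), Aurka (0.28, 0.0375) and Mki67 (0.27, 0.048). None passed with the muscle level as a covariate, where their adjusted p ran from 0.0502 to 0.0773. Their log2 fold changes there were no smaller, at 0.24 for Mcm2, 0.33 for Bub1, 0.28 for Aurka and 0.31 for Mki67. Of these Bub1 (0.0654), Aurka (0.0681) and Mki67 (0.0602) did not pass with the skin level, nor Mki67 by edgeR (0.0581). Mcm2 missed 0.05 without untreated tumor 4 or anti-LTβR tumor 2, 6 or 7 (up to 0.0558). Bub1 and Aurka did so without any 1 of 10 of the 16 libraries (up to 0.0714 and 0.07) and Mki67 without any 1 of 11 (up to 0.0894).

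Sprr2a2, Krt6a, Krt16, Slurp1 and Il24, picked here after their values were seen, were called lower. Sprr2a2, a cornified envelope protein whose gene overlaps Sprr2a1, ranged from 248 to 6384 (median 2441) in untreated and from 125 to 1409 (median 205) in treated tumors (log2 fold change -2.73 ± 0.66 SE, adjusted p = 0.0146), and the wound keratins Krt6a (-1.87, 0.0233) and Krt16 (-1.59, 0.0308) went with it. None of the 8 skin genes passed, Krt14 having -1.41 ± 0.47 (SE, adjusted p = 0.0523, by edgeR -1.49 and 0.0473), Krt5 -1.06 (0.172), Krtdap -0.51 (0.639) and Krt15 0.47 (0.755). With the summed muscle level added, the adjusted p was 0.0534 for Sprr2a2, 0.0751 for Krt6a and 0.0948 for Krt16. Slurp1, a secreted Ly6 protein of keratinocytes, fell (log2 fold change -1.17 ± 0.26 SE, adjusted p = 0.00899) as did the cytokine Il24 (log2 fold change -1.99 ± 0.43 SE, adjusted p = 0.00906). With 1 library left out, the adjusted p exceeded 0.05 for Krt16 without untreated tumor 4 or anti-LTβR tumor 2, 5 or 8 (up to 0.0622). With the skin level as a covariate Sprr2a2 had -2.05 (0.00736) and Krt6a -1.46 (0.0324).

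Stromal and muscle lists gave few passing genes. Against backgrounds of 7.21% higher and 8.10% lower, of 13 fibroblast genes Dpt (0.76, 0.0398) and Fap (0.49, 0.0323) rose and Tagln, a contractile protein, fell (-0.86, 0.0223), while Dcn had 0.25 (0.363). None of these 3 passed with the muscle level as a covariate (0.137, 0.113 and 0.0677), and Dpt had an adjusted p of 0.0669 with the skin level and 0.0522 by edgeR. Dpt missed 0.05 without any 1 of 9 of the 16 libraries (up to 0.0804). Fap did so without untreated tumor 1 or 4 or anti-LTβR tumor 3, 6 or 7 (up to 0.0638). All 8 skeletal muscle genes had positive differences and none passed, Atp2a1 having 1.87 ± 0.87 (SE, adjusted p = 0.144), Myh4 1.903 (0.166), Myh1 1.33 (0.19) and Ckm 1.68 (0.191). Neither did any of 8 adipocyte genes, with Car3 at 0.93 (0.306), Lpl at 0.48 (0.414), Cfd at -0.31 (0.716) and Retn at -0.29 (0.719).

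**Figure D5:**
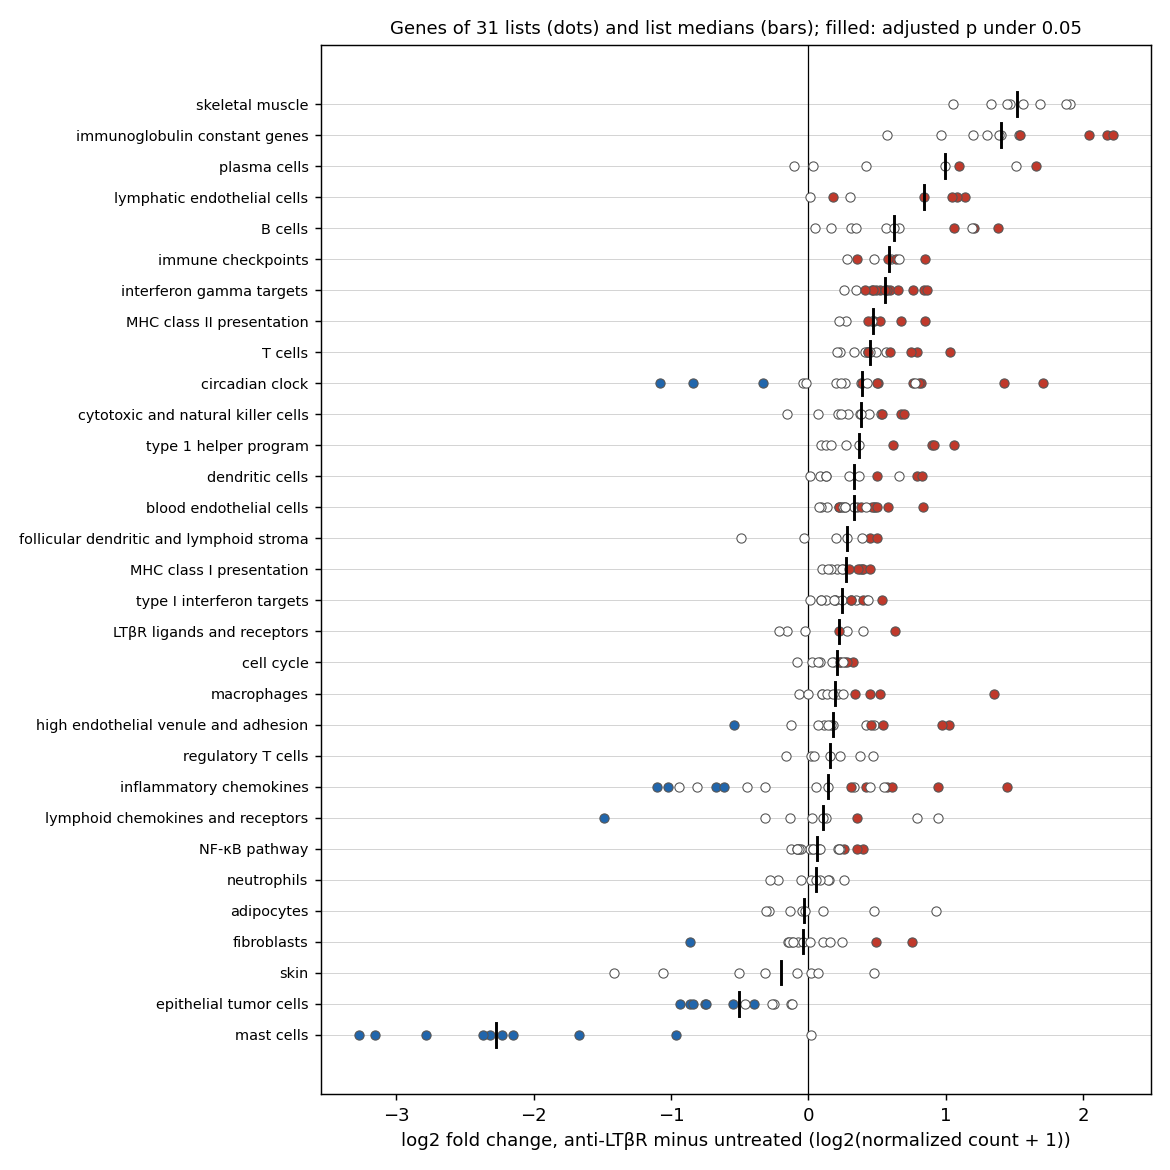
Log2 fold change (x axis, anti-LTβR minus untreated, on log2(normalized count + 1)) of each tested gene (dots) of 31 gene lists (y axis, ordered by median), filled red or blue where the adjusted p is under 0.05. The mast cell list has the lowest median, -2.27, and 9 of 10 filled dots; the skeletal muscle list has the highest, 1.52, with no filled dot.

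The remaining genes with small adjusted p belong to no list. Mdga1, a glycosylphosphatidylinositol-anchored adhesion protein, ranged from 74.3 to 154 (median 95.0) in untreated and from 181 to 310.2 (median 238) in anti-LTβR tumors, without overlap, with 1.27 ± 0.15 (SE, adjusted p = 0.000284). Piwil4, a member of the Argonaute family, rose by 1.29 ± 0.19 (SE, adjusted p = 0.000824). Csmd1 and Dlgap2, best known from the nervous system, both lie on chromosome 8 (chr8:15942537-17585602 and chr8:14145865-14897680, mm39). Csmd1 ranged from 88.4 to 315 (median 174) and from 344 to 694 (median 546), again separating the groups, with 1.64 ± 0.26 (SE, adjusted p = 0.00151), and Dlgap2 rose by 1.69 ± 0.26 (SE, adjusted p = 0.00119).

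Lowered genes outside the lists included secreted factors. Ptx3, a pentraxin of innate immunity, ranged from 77.8 to 328 (median 241) in untreated and from 36.1 to 70.2 (median 53.2) in anti-LTβR tumors, without overlap, with -1.97 ± 0.26 (SE, adjusted p = 0.000562). Sema3c, a guidance factor, fell from a median of 1974 (1018 to 2811) in untreated to one of 809 (596 to 989.9) in anti-LTβR tumors, likewise without overlap (log2 fold change -1.19 ± 0.19 SE, adjusted p = 0.00182). Nrcam, a cell adhesion molecule, changed by -1.37 ± 0.20 (SE, adjusted p = 0.00087), AU021092 by -1.26 ± 0.18 (SE, adjusted p = 0.000824), Cd300e, a receptor of myeloid cells, by -1.84 ± 0.31 (SE, adjusted p = 0.00212) and Angptl8, a regulator of lipoprotein lipase, by -2.05 ± 0.36 (SE, adjusted p = 0.00285). Angptl8 overlaps the more abundant Dock6, and Ptx3 overlaps Veph1, on the opposite strand. The processed pseudogene Gm6286 changed by -1.02 ± 0.18 (SE, adjusted p = 0.00299) and the aminopeptidase Lvrn by -1.004 ± 0.18 (SE, adjusted p = 0.003). Tenascin C (Tnc), an extracellular matrix protein, went from 7201 ± 1488 to 3746 ± 1770.3 (log2 fold change -1.05 ± 0.24 SE, adjusted p = 0.0102). Tnc was under 2-fold with the muscle level (-0.80) or the skin level (-0.87) as a covariate, by edgeR (-0.95) and without untreated tumor 8 or anti-LTβR tumor 2, 4 or 6 (up to -0.91). Lvrn was so with the muscle level (-0.93) or the skin level (-0.92) and without untreated tumor 1, 4 or 7 or anti-LTβR tumor 2, 3 or 7 (up to -0.88). Gm6286 was under 2-fold with the muscle level (-0.99) and without untreated tumor 1, 2 or 4 or anti-LTβR tumor 2, 3 or 6 (up to -0.93).

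How anti-LTβR alone differed from the other treatments was tested directly. These tests reuse the 8 anti-LTβR tumors, so they are not independent of those above. The summed muscle level ran from 8884 to 268430.0 (median 101575) in ADU-S100 and from 8263 to 440936 (median 127081) in combination tumors, and its part in these differences was not tested. Against ADU-S100 tumors, 93 of 16649 genes were called higher (0.559%) and 7 lower (0.0420%) in anti-LTβR tumors, and at the adjusted p alone 3.38% were higher and 3.04% lower. Of 8 mast cell genes tested there 3 were lower. Mcpt2 averaged 164 ± 139 (SD, n = 8) in ADU-S100 and 39.5 ± 30.6 in anti-LTβR tumors, a difference of -1.93 (adjusted p = 0.026), while Mcpt4 did not pass (-0.97, 0.161). Of 19 clock genes 5 were higher and 3 lower, with Dbp at 312 ± 62.8 in ADU-S100 and 625 ± 91.4 in anti-LTβR tumors (1.02, 0.00208) and Arntl differing by -0.68 (0.00141). Nos2 differed by 0.85 (0.006), Vcam1 by 0.83 (0.006), Prox1 by 0.85 (0.006) and Iglc2 by 2.40 (0.00306). Ptx3 averaged 55.4 ± 19.9 after ADU-S100 and 51.9 ± 12.7 after anti-LTβR, a difference of -0.044 (0.941).

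Against tumors given both agents, 332 of 16932 genes were called higher (1.96%) and 25 lower (0.148%) in the combination, and at the adjusted p alone 11.3% were higher and 15.3% lower. Of 19 clock genes 4 were higher and 3 lower, and those named here went further in the direction they had taken under anti-LTβR alone, Dbp to 864 ± 176 (0.46, 0.0101), Hlf to 90.1 ± 23.8 (0.86, 0.00179) and Arntl to 337 ± 47.9 (-0.55, 0.000738). Of 7 lymphatic genes 6 were higher in the combination, with Prox1 at 184 ± 40.5 (1.09, 0.000732), and of 19 blood endothelial genes 18 were higher and 1 lower, Flt1 (-0.41, 0.00558). Krt18 (-0.71, 0.00199), Lad1 (-0.60, 0.00192) and Sema3c (-0.72, 0.00324) were lower still. Of 8 mast cell genes 1 was higher in the combination, Kit (0.37, 0.00406), and the mast cell proteases did not pass, Mcpt2 averaging 30.1 ± 31.8 in the combination (-0.89, 0.313), nor did Vcam1 (0.14, 0.552), Ifng (0.28, 0.419) and Iglc2 (-0.24, 0.661). Of 15 interferon-γ targets 4 were lower in the combination than after anti-LTβR alone and none higher. Ptx3 (1.01, 0.000892) and Tnc (1.22, 0.00752), lowered by anti-LTβR alone, were higher in the combination, as were 12 of 13 fibroblast genes.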

How the data were processed

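Tumors were profiled by poly(A) RNA-seq. Per the labels, reads were trimmed with cutadapt 1.9 and placed on mm39, the labels and methods naming HISAT2, StringTie, DESeq2, edgeR, STAR and Partek among the tools. The strand setting of the counting is not given for the stranded libraries in the sources used here. The table used here holds normalized counts as the authors deposited them, a signal per gene and library: estimated counts, not whole numbers, divided by a size factor. In a second table that the authors deposited, of 27894 genes in 52 libraries (26057 genes in both), 100% of values of up to 1000 reads were whole multiples of the step of their library within 0.1, so read counts were recovered there for the count tests, the depth and the self-test. A table of the authors' own gene ontology enrichment was not used. 

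The normalized counts of 8 anti-LTβR and 8 untreated tumors were taken as log2(value + 1), filtered with filterByExpr (count minimum 10) and fitted with limma 3.58.1 with a mean trend, without a block, in R 4.3.3. The p-values were two-sided and adjusted over all genes tested (Benjamini-Hochberg), and a called gene had an adjusted p under 0.05 and a change of at least 2-fold. Values understate the fold of low genes because of the added 1. Recovered read counts were also fitted with edgeR 4.0.16, which called 105 genes higher and 86 lower, and DESeq2 1.42.0. Other alternatives were a pseudocount of 0.5, other filters, 1 fit over 4 groups, a replicate block, scaling by library total, and each library left out. Fits with the summed muscle or skin level as a covariate were chosen after seeing the data. The scripts were tested on simulated data.

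The comparison and the gene lists were chosen with earlier results of these data known. Genes named are the 15 called higher and the 15 called lower with the smallest adjusted p (immunoglobulin and T cell receptor variable segments counted only), all LTβR and NF-κB genes, the 4 genes of smallest adjusted p in each other list, and the 5 called genes with the highest mean. Chosen after their values were seen were 43 more, list members among them (Fcer1a, Hlf, Per2, Per3, Cxcl9, Cd8a and others), Slc7a2, Lvrn and the squamous genes, and also Ccl21b and Ccl21d. Some genes that the rule names are not reported here. The study describes the tumors of a group as biological replicates sequenced without pooling, once as 1 experiment and once as combined from 2. The labels give no such split within the 16 libraries, all of which have source names of ST#23, while 20 libraries of the series fall outside ST#23. Replicate numbers name tumors and were not taken to pair them: the correlation of same-numbered tumors ran from -0.531 to 0.340 over 8 pairs. The 2 closest libraries differed by 0.406 (root mean square, log2), so none was treated as a duplicate. Promoters were matched by symbol to RefSeq sequences of GRCm38.p6, whose coordinates are not those of mm39.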

Additional observations from a re-analysis of the deposited data

Results flagged for a closer look

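In 48 of 420 gene-by-group sets of 8 tumors (11.4%), the highest or lowest tumor stood apart from the other 7 by more than Dixon's 95% critical value for 8 samples, as a share of the group's range. Chance flags about 1 in 20 such groups where values are normally distributed, which was not tested for these untransformed counts. All flags but that of Tap2 were on the high side, so the share cannot show an excess of outlying tumors. Genes of one tissue are also not independent. Values are normalized counts, and each is followed by the nearest other tumor of its group in parentheses. Anti-LTβR tumor 3, which had the highest summed skin level of its group, was highest for Krt14 at 5988 (2067), Krt5 at 5669 (1698), Krtdap at 1022 (283), Krt15 at 685 (263), Tnc at 7407 (4251), Ms4a2 at 8.29 (4.87), Ccl19 at 32.6 (19.2), Cdh1 at 529 (224), Epcam at 141 (67.5) and Sprr2a2 at 1409 (266). Anti-LTβR tumor 1 held the highest values of its group for 2 chymases and 4 other genes, with Mcpt2 at 109.6 (43.4), Mcpt1 at 169 (78.1), Csf1r at 4710.2 (3940.3), Kit at 152 (123), Glycam1 at 17.3 (4.83) and Cd4 at 212 (155). Anti-LTβR tumor 6 was highest for genes of lymphatic vessels, B cells and plasma cells, with Mmrn1 at 328 (215), Reln at 219 (137), Cd79a at 255 (122), Jchain at 17952 (8212), H2-Ob at 102 (78.2) and Lyve1 at 211 (135). In anti-LTβR tumor 7 immunoglobulin constant genes stood out, with Iglc2 at 1336 (675), Ighg3 at 5792 (1325) and Iglc3 at 1626 (770.5).

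Highest in untreated tumor 3 were Vcam1 at 1778 (1254), Tnfrsf1b at 2225 (1854), Cxcr5 at 17.3 (10.004), Clu at 2135 (685), Ighg3 at 590.4 (240.5), Clec9a at 49.8 (31.1), Slc7a2 at 2156 (1092) and Lyve1 at 265 (158). Highest in untreated tumor 4 were Tpsb2 at 450.0 (299.6), Mcpt2 at 677 (371), Mcpt1 at 885 (463) and Traf2 at 657 (553). Highest in untreated tumor 2 were Tnfsf13b at 217 (137), H2-Aa at 18739.7 (12899.5), Dcn at 7445 (4869.5) and Cxcl9 at 6062 (4022). Highest in untreated tumor 7 were Ccl20 at 46.9 (23.1), Prdm1 at 650.4 (417) and Lvrn at 122 (80.3). Highest in anti-LTβR tumor 4 were Nfkb1 at 2768 (2461) and Cxcl10 at 3635 (2677). Lowest in untreated tumor 7 was Tap2 at 1529.8 (1963). Highest in anti-LTβR tumor 5 was Npas2 at 41.4 (24.0). None of the calls of Mcpt1, Mcpt2, Tpsb2 or Slc7a2 was lost when any 1 library was left out.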

How the results depend on the processing

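Of 2217 log2 fold changes of 210 genes under other fits, 2058 kept their direction and side of the threshold, 118 were no longer past it, 32 newly passed it and 9 changed sign. With 1 library left out these were 2985, 239, 37 and 19 of 3280. The sign changes concern genes that did not pass: Ccl19 had -0.12 by edgeR (TMM), -0.12 by edgeR (RLE) and -0.13 by DESeq2, Cxcl13 -0.0039, Epcam 0.23 and Krtdap 0.25 with the skin level, and Epcam 0.15, Ckm -0.020 and Car3 -0.079 with the muscle level as a covariate. Ckm is itself summed into the muscle level and Krtdap into the skin level, so these covariates take up part of their differences by construction. With 1 library left out the ranges of those that changed sign were Ccl19 -0.15 to 0.17, Cfd -0.57 to 0.00617, Cxcl13 -0.0215 to 0.28, Kit -0.0368 to 0.0471, Nfkbia -0.0199 to 0.082 and Traf2 -0.0292 to 0.0499.

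Against 109 genes called higher and 64 lower, a minimum of 10 in every library gave 55 and 41, DESeq2 171 and 190, no filter 181 lower and the muscle covariate 49 and 35, with 692 higher and 651 lower at the adjusted p alone against 1203 and 1352. The minimum tests fewer genes and DESeq2 tests others, and the cause of the rest was not tested. Leaving out 1 library gave 64 (without untreated tumor 1) to 157 (without untreated tumor 3) called higher, 45 (without untreated tumor 4) to 102 (without anti-LTβR tumor 3) called lower, 809 (without anti-LTβR tumor 6) to 1384 (without untreated tumor 3) higher and 737 (without untreated tumor 1) to 1615 (without untreated tumor 5) lower at the adjusted p alone, and 67 were called higher without untreated tumor 4 and 66 without anti-LTβR tumor 6, while 880 and 841 were lower at the adjusted p alone without untreated tumor 4 and anti-LTβR tumor 7. Without the filter 51 genes were called lower in the combination against anti-LTβR alone and 25 in anti-LTβR against ADU-S100, where 305 were lower at the adjusted p alone.

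With the replicate number as a block, 85 genes were called higher and 50 lower, with 820 higher and 840 lower at the adjusted p alone, and against ADU-S100 3 were called lower, with 273 higher and 172 lower at the adjusted p alone. The numbers do not pair the tumors: 3 of 8 pairs correlated above 0.1 and 1 of 8 anti-LTβR tumors correlated best with its own number. Depths of 12762453 to 15404418 reads limit genes with a few reads, such as Tpsab1 in treated tumors and the venule genes.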
